A study of Homo sapiens with 2 samples.

Results

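The genes described are 10 genes that build the keratin filaments of simple epithelia and the desmosomes to which those filaments are tied: KRT7, KRT8, KRT18, KRT19, DSP, PKP2, PKP3, DSG2, DSC2 and DSC3. Their probes were taken as the non-control array probes whose RefSeq accession names a member gene, which gave 15 probes of the 58201 on the array, for 10 of the 22439 genes that could be named. The list was not chosen by a rule on measured values, but it was chosen with earlier results of these data known. The cells were of the human embryonic stem cell line H9, and their messenger RNA was read on 2 single-colour Agilent arrays. Substate 1 was passage 35 (1 array) and substate 2 was passage 50 (1 array), and per the labels both were kept on Matrigel, a basement membrane extract, in TeSR-E8 medium. No genotype or added agent set them apart in the labels. In the study, colony morphology and antibody staining defined the substates: tight colonies rich in the R-10G epitope with hardly any vimentin were substate 1, and looser colonies with less of the epitope and with vimentin were substate 2. How cells were taken for the arrays is not given in the sources used here. Per the methods of the study, cells were put on Matrigel at passage 35, so time on Matrigel may also have differed. Substate, passage and any such time went together and cannot be told apart. Each substate had 1 array, so no difference below has a test, a p-value or a replicate check, and each compares these libraries.

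Desmosomes are junctions that weld neighbouring epithelial cells together and anchor their keratin filaments at the cell surface. Desmogleins and desmocollins are cadherins that bind across the gap between cells. Inside the cell their tails hold plakoglobin and plakophilins, which in turn hold desmoplakin, and desmoplakin holds the filaments. Keratin filaments are built from equal numbers of type I and type II chains. KRT8 with KRT18 is the pair that appears earliest in the embryo and is typical of simple epithelia, and human pluripotent stem cells in culture grow as an epithelial sheet that has it.

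All 15 member probes were well above background on both arrays and none was saturated. No member probe differed by 1.5-fold or more. At the gene level the simple epithelial keratins had a median log2 difference (substate 2 minus substate 1) of 0.20, and the 6 desmosome members had a median of -0.19, beside a median of 0.08 over the 16001 genes measured on both arrays. KRT8 had the highest difference, 0.33 (1.26-fold), and PKP2 the lowest, -0.56 (1.47-fold lower in substate 2). CDH1 (E-cadherin), the classical cadherin of the same epithelial cells, was 2.78-fold lower in substate 2, so that the differences of the members lay 0.91 to 1.80 above that of CDH1 on the log2 scale.

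Promoter windows are shown for DSP, DSG2 and DSC3, the members with a gene difference below 0 for which a single start was listed. This choice used the sign of values in these data, so the matches are description only. For DSC3 that sign is not settled, as its probes went opposite ways. The capitals mark CACCTG or its reverse complement CAGGTG, the E-box core that repressors of the ZEB and SNAI families are known to bind, searched on both strands. The windows are the 250 bases before the start that RefSeq gives for each gene on GRCh38.p14, written 5′ to 3′ along the gene. They are chr6:7541421-7541670 on the plus strand for DSP, chr18:31497927-31498176 on the plus strand for DSG2 and chr18:31042743-31042992 on the minus strand for DSC3.
DSP: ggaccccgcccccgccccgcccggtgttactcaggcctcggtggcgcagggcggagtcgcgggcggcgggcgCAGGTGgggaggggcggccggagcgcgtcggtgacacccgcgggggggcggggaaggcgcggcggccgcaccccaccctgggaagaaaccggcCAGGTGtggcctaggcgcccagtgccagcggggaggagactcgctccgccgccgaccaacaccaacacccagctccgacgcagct
DSG2: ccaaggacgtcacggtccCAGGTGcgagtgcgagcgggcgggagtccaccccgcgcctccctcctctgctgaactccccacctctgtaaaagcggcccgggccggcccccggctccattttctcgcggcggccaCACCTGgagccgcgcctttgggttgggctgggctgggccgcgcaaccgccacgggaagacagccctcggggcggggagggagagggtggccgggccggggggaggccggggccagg
DSC3: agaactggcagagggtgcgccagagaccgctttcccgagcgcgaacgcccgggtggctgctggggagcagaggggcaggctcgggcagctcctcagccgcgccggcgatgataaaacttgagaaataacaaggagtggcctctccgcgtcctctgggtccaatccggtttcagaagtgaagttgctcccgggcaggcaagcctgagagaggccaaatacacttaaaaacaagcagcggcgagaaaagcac

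The DSP window held the core at 178 and 85 bases before the start, and the DSG2 window at 232 and 116 bases. The DSC3 window held none. The window of the only start listed for KRT8 held none, and that start lay inside the span that RefSeq gives for the gene, so it may not be the one in use. Windows were found for 5 of the 10 members, with 2 starts for DSC2. Of the DSC2 starts, the upstream one had the core 156 bases before it and the other had none. Of all 35116 windows of this length, 17.5% held the core. GGGCGG, on either strand, was found 7 times in the DSP window, 2 times in that of DSG2, 1 time and 2 times in the upstream and downstream DSC2 windows, and 0 times in those of DSC3 and KRT8. At least 1 copy was present in 42.6% of all windows. TATAAA, on either strand, was found in none of the member windows, against 10.7% of all. G and C made up 78.0% of the DSP window, 75.2% of that of DSG2, 60.4% of that of DSC3, 50.4% of that of KRT8, and 59.6% and 66.8% of the upstream and downstream DSC2 windows, beside a median of 58.0% over all windows. These matches describe letters in the windows. Which starts the cells used, and whether any factor was bound there, was not measured. KRT7, KRT18, KRT19, PKP2 and PKP3 had no entry.

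Well above background were 57.4% of the 60901 non-control spots in substate 1 and 54.7% in substate 2. Each array was scaled to the 75th percentile of its probes (314 and 275 units of signal), which adds 0.19 to every log2 difference. Each member probe was printed in 1 spot per array. The error given beside a member difference is therefore that of other probes, which were printed in several spots. Within signal ranges, the median SD of the difference between single spots was 0.24 under 50 units (7 probes), 0.12 from 50 to 500 units (22 probes), 0.072 from 500 to 5000 units (184 probes) and 0.060 above that (78 probes). Differences between cultures, RNA extracts or labelling reactions are not part of this error. The labelled cell type was borne out by its markers, since 7 of the 8 pluripotency genes listed were measured on both arrays, with differences from -0.03 (SALL4) to 0.42 (NANOG), and TDGF1 was not named by a probe here. In RNA pooled from many cells, fewer cells that express a gene and less RNA per cell cannot be told apart.

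The type II keratins were KRT8, the partner of KRT18, and KRT7, which is found in simple and ductal epithelia. KRT7 had a processed signal of 3039 in substate 1 and 2988 in substate 2. After scaling, this was a log2 difference of 0.16 ± 0.072 (SD of spot noise). The signals before scaling went slightly the other way, with a ratio of 0.983, so the direction of KRT7 depended on the scaling, although KRT7 lay above the median of all genes either way.

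KRT8 had 3 probes, and all 3 were higher in substate 2 after scaling. The probe A_23_P14072 read 3372 in substate 1 and 3704 in substate 2, a difference of 0.32 ± 0.072. The probe A_24_P67395, on the same transcript, read 107 and 136, a difference of 0.54 ± 0.12. The probe A_33_P3372368, designed on a noncoding transcript of the gene, read 829 and 795, a difference of 0.13 ± 0.072. Whether that probe also binds the coding transcripts was not tested. The dim probe thus differed most and the probe designed on the noncoding transcript least, and the KRT8 probes lay 0.41 apart. KRT8 lay above 80.1% of the measured genes.

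The type I keratins were KRT18 and KRT19, the smallest keratin, which marks simple and ductal epithelia. One KRT18 probe (A_24_P42136) read 8014 in substate 1 and 8348 in substate 2, a difference of 0.25 ± 0.060. The other (A_32_P151544) read 36649.7 and 37663, a difference of 0.23 ± 0.060, so both probes gave nearly the same value. KRT18 lay above 69.2% of the measured genes. KRT19 read 16771 and 14035, a difference of -0.07 ± 0.060, and was the only member keratin below 0 and below the median of all genes.

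**Figure D1:**
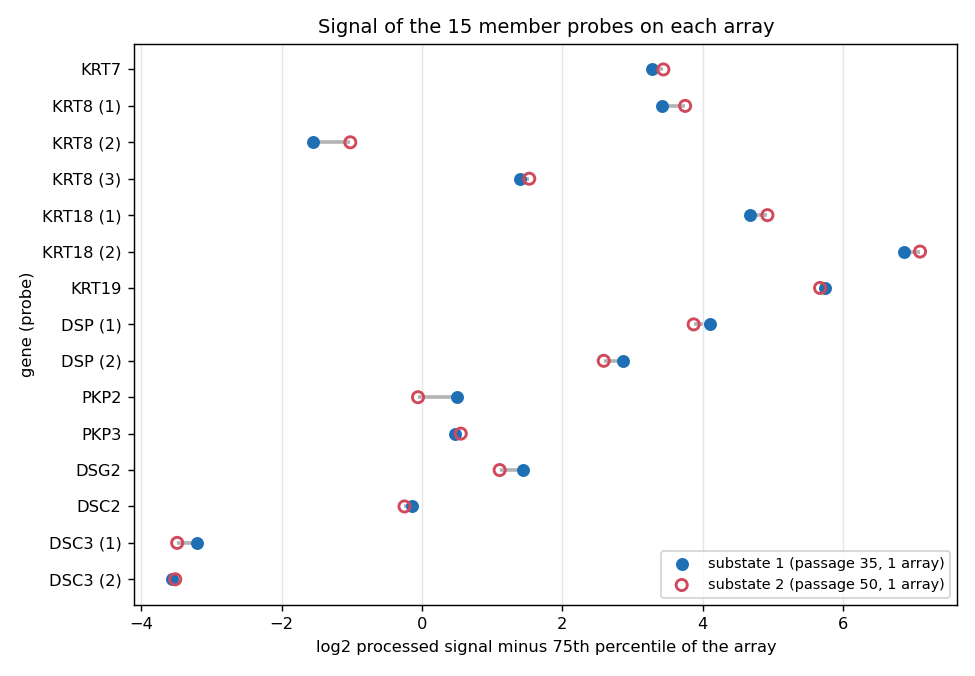
Normalised signal (log2 processed signal minus the 75th percentile of the array) of each of the 15 member probes, with a filled point for the substate 1 array and an open one for the substate 2 array, 1 array each. The points of a probe lie close together for every member, with the longest lines for PKP2 (0.50 and -0.06) and the dim KRT8 probe (-1.56 and -1.02).

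Of the plaque proteins, DSP (desmoplakin) ties keratin to the junction, and PKP2 and PKP3 (plakophilins) gather desmosomal cadherins and desmoplakin. The DSP probe A_32_P157945 read 5387 in substate 1 and 4029 in substate 2, a difference of -0.23 ± 0.072. The DSP probe A_33_P3402565 read 2286 and 1658, a difference of -0.28 ± 0.072. Both DSP probes were lower in substate 2, and they lay 0.04 apart. PKP2, which is also found outside stratified epithelia, read 445 and 265, a difference of -0.56 ± 0.12, and only 5.54% of the measured genes lay below it. PKP3 read 433 and 404, a difference of 0.09 ± 0.12, at the median of all genes. The bars of spot noise of the plakophilins did not overlap.

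Of the desmosomal cadherins, DSG2 (desmoglein 2) and DSC2 (desmocollin 2) are the forms of simple epithelia, and DSC3 is typical of the lower layers of stratified epithelia. DSG2 read 848 in substate 1 and 593 in substate 2, a difference of -0.33 ± 0.072, with 13.2% of the measured genes below it. DSC2 read 285 and 232, a difference of -0.11 ± 0.12. Of the DSG2 and DSC2 differences, only that of DSG2 was larger than the spot noise.

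DSC3 had 2 dim probes. The probe A_24_P344416 read 34.1 in substate 1 and 24.6 in substate 2, a difference of -0.29 ± 0.24. The probe A_33_P3266898 read 26.5 and 24.1, a difference of 0.05 ± 0.24. The DSC3 probes went opposite ways and each lay within 1.96 SD of the spot noise, so no direction can be given at this signal.

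Measured against limits of size, 0 of the 15 member probes were 2-fold or more higher and 0 were 2-fold or more lower, beside 1.55% and 1.67% of the 33166 probes that 1 array or both had well above background. The counts were also 0 at 1.5-fold, which 6.03% of those probes passed upwards and 7.64% downwards. PKP2 lay close to that limit, and was 1.52-fold lower under normexp correction and 1.68-fold lower with no scaling. The Z-score of the study is the difference less the mean over all probes, divided by the SD over all probes, with limits at 2 and -2. The member probes had Z-scores from -0.998 to 0.73 and 0 of 15 passed, beside 6.33% of all probes (3.03% upwards and 3.3% downwards). These limits correspond to 2.53-fold higher and 2.29-fold lower, and the differences of the members are smaller. Under normexp correction, with narrower limits of 1.47-fold higher and 1.30-fold lower, PKP2 (Z-score of -2.99) and DSG2 (-2.09) passed the lower one. Against spot noise, 4 member probes lay more than 1.96 SD above the median of all measured probes and 5 lay below it. These shares of 15 were near the background, since 27.2% of the 29592 probes with 1 spot lay above and 27.6% below. The error that the scanner software gives for each spot is wider. By it, the 95% interval was above 0 for 1 member probe (KRT8 A_24_P67395, 0.12 to 0.95) and below 0 for 1 (PKP2, -0.96 to -0.15), beside 10.7% and 10.4% of the probes with 1 spot. Of the 10 members, 6 were lower than 0, beside 40.2% of all measured genes, and 4 were higher, beside 59.8%. The median size of the difference was 0.20 over the members and 0.23 over all measured genes.

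**Figure D2:**
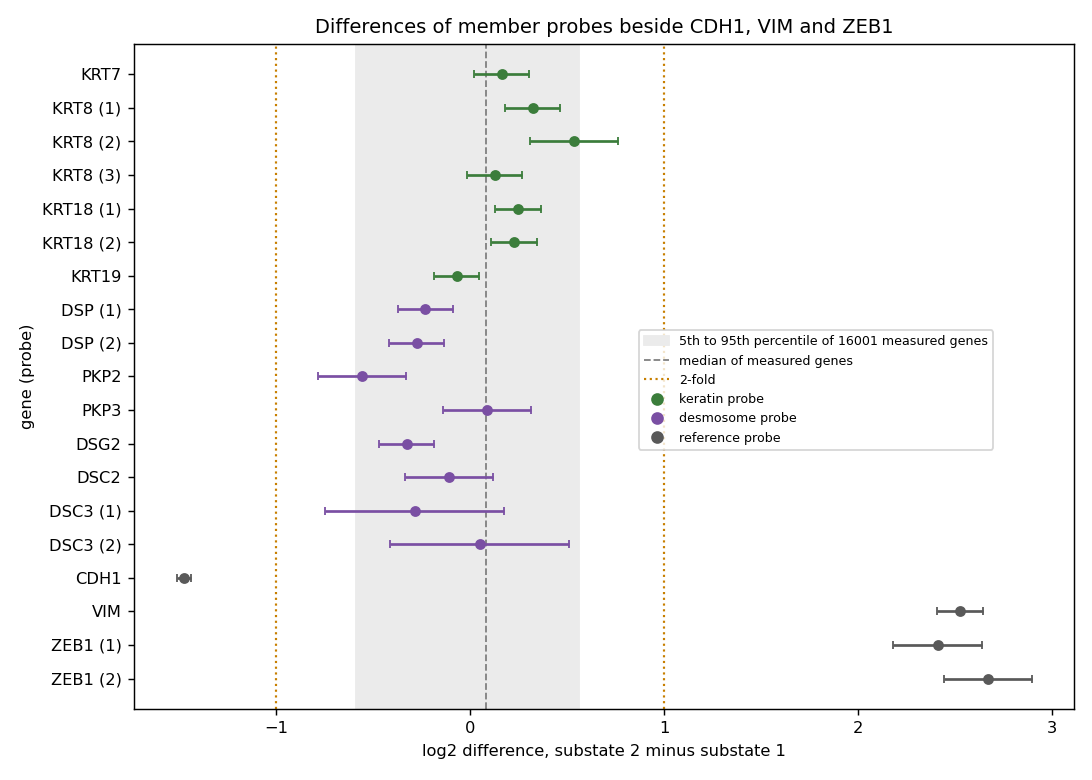
Log2 difference (substate 2 minus substate 1) of the member probes and of the probes of CDH1, VIM and ZEB1. Bars are 1.96 SD of spot noise in the signal range of the probe, divided by the square root of the spot number for CDH1. The member probes lie between -0.56 and 0.54, inside the 2-fold lines, and the CDH1, VIM and ZEB1 probes lie outside them.

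The scale of these values was set against genes that mark the direction of the substates. The CDH1 probe was printed in 10 spots, and the spot differences ran from -1.56 to -1.33. VIM (vimentin), the intermediate filament of mesenchymal cells, whose protein was used to define the substates, had a difference of 2.53, and the probes of ZEB1, a repressor of CDH1, had 2.41 and 2.67 (1.94 and 1.32 under normexp). Keratin and vimentin signals thus did not move in opposite directions by like amounts, as the member keratins lay between -0.07 and 0.33. No test of these contrasts was possible.

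The order of keratins above desmosome members did not depend on a constant shift between the arrays. The median of the desmosome members was 0.39 below that of the keratins after scaling to the 75th percentile or to the median and with no scaling, since these settings differ by a constant. It was 0.30 below after quantile normalisation and after loess centring, and 0.31 below after normexp background correction. The groups overlapped, as KRT19 (-0.07) was lower than PKP3 (0.09). Relative to the median of all measured genes, KRT7, KRT8 and KRT18 were above it, and KRT19, DSP, PKP2, DSG2 and DSC2 below it, under each of these 6 normalisations. The keratin median exceeded that of all genes by little after loess or quantile normalisation, at 0.06 and 0.07 against 0.03 and 0.05. KRT8 kept 0.28 after each, and KRT7 had 0.05 and 0.06. KRT18 then had 0.07 and 0.08, and KRT19 -0.24 and -0.21, so both moved by more than the SD of their spot noise.

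**Figure D3:**
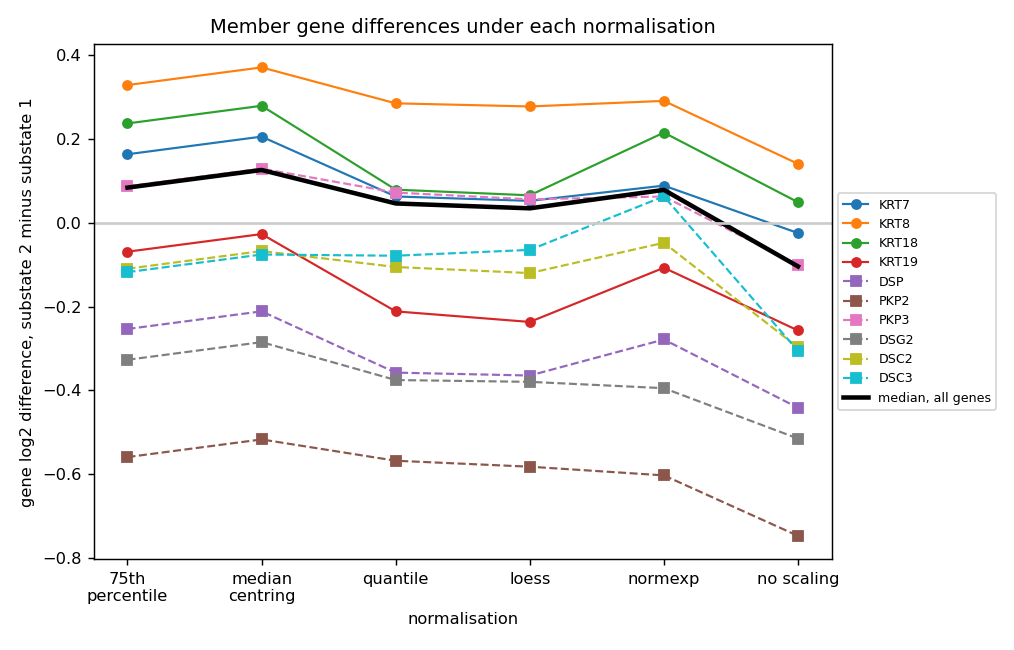
Gene log2 difference (substate 2 minus substate 1) of each member under 6 normalisations, with circles for keratins, squares for desmosome members and a black line for the median of all genes measured on both arrays. PKP2, DSG2 and DSP are the lowest under each of them and KRT8 the highest, whereas KRT7 and PKP3 change sign without scaling and DSC3 changes sign under normexp.

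The other desmosome genes held 8 genes, of which 3 were measured on both arrays. JUP (plakoglobin, which links the cadherin tails to desmoplakin) had a difference of 0.29, PERP (a desmosomal membrane protein) had -0.04 and PKP4 had a mean of -0.02 over 3 probes. Their median was -0.02, which was 0.02 after centring on the median. PKP1, DSG1, DSG3 and DSC1, the forms of stratified epithelia, were well above background on neither array. DSG4, a desmoglein known from hair, was well above background in substate 2 only, with signals of 6.67 and 51.1 and a bound of at least 4.02-fold higher. This rested on 1 dim spot per array, and normexp correction left it 1.74-fold higher.

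Among 18 other type II keratins, 5 were measured on both arrays, 2 on one array and 11 on neither. The 5 had a median of -0.01, with 0.37 for KRT73, 0.27 for KRT78 and -0.33 for KRT3. Among 15 other type I keratins, 3 were measured on both arrays, 2 on one array and 10 on neither. These 3 were all above 0 under each normalisation tried, with 0.63 for KRT9, 0.41 for KRT10 and 0.21 for KRT15. None of these keratins passed 2-fold where both arrays measured them, or by the bound used otherwise. KRT80, KRT26 and KRT28 were well above background in substate 1 only, with signals of 19.3, 23.8 and 15.1 there, and KRT4 in substate 2 only, with 21.2. Without a bound their differences were -2.40, -0.97, -2.08 and 0.63, in that order. Those of KRT80 and KRT28 passed the lower Z-score limit (-3.91 and -3.40), with signals of 3.21 and 3.14 in substate 2. KRT6C and KRT16, well above background on neither array, passed the upper limit (2.20 and 2.03), with signals of 8.34 and 16.0 in substate 2. For KRT28 no bound could be given. KRT5 and KRT14, the pair of the basal epidermis, were well above background on neither array.

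Plakins and other keratin linkers were measured in full, 9 of 9 genes, with a median of -0.12, and 0 of their 14 probes passed 2-fold. The lowest were EPPK1 (epiplakin, -0.77), PPL (periplakin, -0.61) and MACF1 (-0.42). PNN, TCHP, EVPL and FAM83H lay between 0.05 and 0.21, and 6 of the 9 lay below the median of all genes under each normalisation tried. Of the 6 hemidesmosome genes, which anchor keratin to the matrix and not to a neighbouring cell, 5 were measured and all 5 were below 0 under each normalisation tried, with a median of -0.24. They were ITGB4 (the hemidesmosomal integrin chain, -0.67), DST (-0.39), CD151 (-0.24), ITGA6 (-0.23) and PLEC (-0.12), and COL17A1 was measured on neither array. DST and PLEC are on both of these lists. Of the 10 genes of stratified epithelium, 5 were measured, all 5 below the median of all genes under each normalisation tried, with a median of -0.40. SPINK5, a protease inhibitor of the skin, had 2 measured probes that were 2.92-fold and 2.51-fold lower in substate 2. They were 1.79-fold and 1.29-fold lower under normexp correction. TGM1 had -0.47 and KLK7 -0.40. CSTA was well above background in substate 1 only, with signals of 16.7 and 4.10, and no bound could be given. LORICRIN was so in substate 2 only, with signals of 10.6 and 18.5 and a bound of at least 1.46-fold higher. TP63, the regulator of stratified epithelia, was well above background on neither array.

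**Figure D4:**
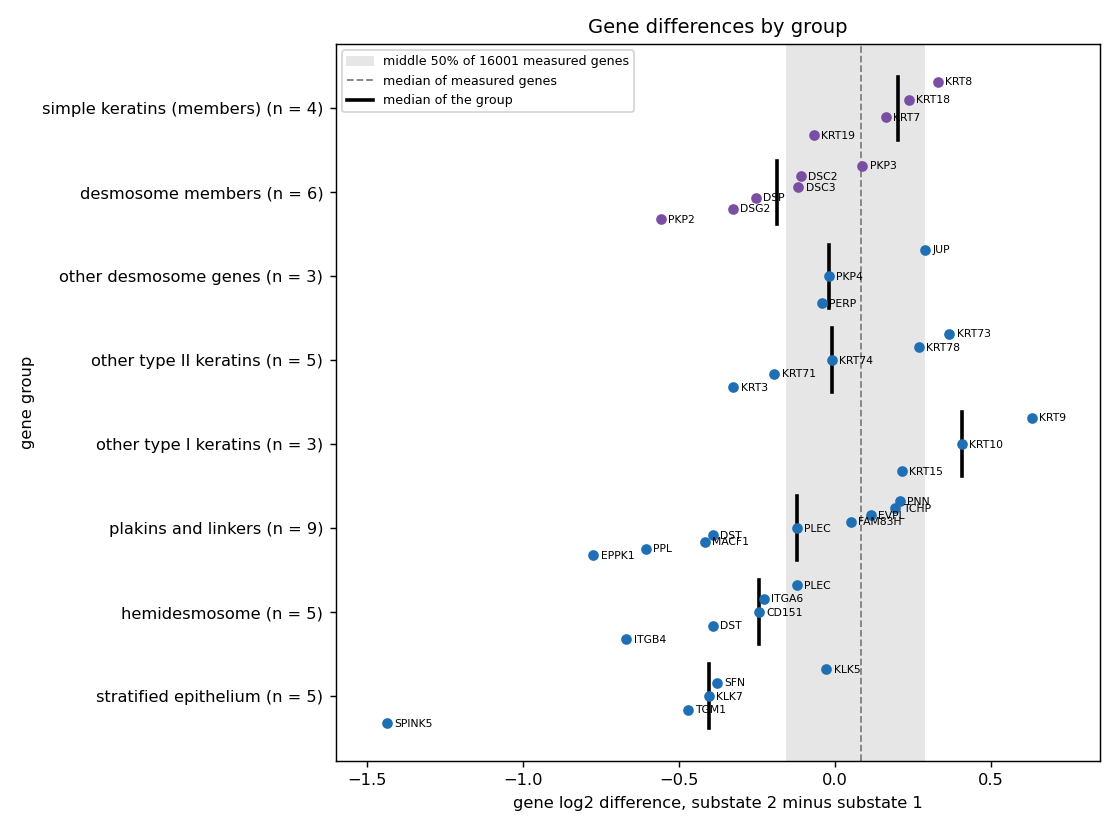
Gene log2 difference (substate 2 minus substate 1) of the genes measured on both arrays, by group, with members in purple, a black bar at the median of each group and a grey band for the middle 50% of all measured genes. The desmosome members (median -0.19), hemidesmosome genes (-0.24) and stratified genes (-0.40) lie to the left of the dashed median of all genes (0.08), and the simple keratins (0.20) to its right.

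By position, the member cadherins DSC3, DSC2 and DSG2 lie on chromosome 18 in a row that holds DSC1, DSG1, DSG4 and DSG3 between DSC2 and DSG2. CDH2 (N-cadherin), next to DSC3 on the outer side, had a difference of 0.82, and TTR, next to DSG2, had 0.42, so the genes directly beside the row were above the 3 members. Farther out, CHST9 had -0.70 and AQP4 -0.93 on the side of DSC3, and B4GALT6 had -0.34 on the side of DSG2, all below the 3 members. KRT8 and KRT18 are next to each other on chromosome 12 although their chains are of different types, and both were above the median of all genes. Beside them, KRT78 had 0.27 and EIF4B -0.05. Farther out on the side of EIF4B, TNS2 had 0.64 and SPRYD3 0.46, both above KRT8 and KRT18. On the side of KRT78, KRT79 and KRT4 were not measured on both arrays. Of 46 genes within 3 genes of a member or inside the cadherin row, 29 were measured on both arrays, with a median of -0.04. Their values ran from -0.93 (AQP4) to 0.82 (CDH2), and ANO9, near PKP3, had -0.86. The median of these neighbours was 0.0046 after centring on the median.

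Keratins 8 and 18 have many processed pseudogenes, and probes can bind both. The name table held 125 pseudogenes of KRT8, KRT18 and KRT19, of which 3 had a probe. The KRT18P55 probe read 9699 in substate 1 and 10736 in substate 2, a difference of 0.33, and the KRT19P2 probe had 0.13. KRT8P41 was well above background in substate 1 only, with signals of 20.1 and 14.4. Whether these probes and the member probes bind each other's transcripts was not tested.

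KRT7, KRT8, KRT18 and KRT19 are also made by trophoblast and amnion, so markers of these and of other cell types were set beside them. A summed level is the sum over the probes of a list, each divided by the 75th percentile of its array. Of 11 trophoblast markers, 3 were measured on both arrays, and the summed level was 4.73 in substate 1 and 4.90 in substate 2. TEAD4 alone made up 86.5% and 89.4% of it, with a log2 difference of 0.10, and CGB3 had 0.18. CDX2, GATA3, TFAP2A, HAND1, ELF5 and VGLL1 were well above background on neither array, and GATA2 in substate 1 only. TFAP2C was 3.62-fold lower in substate 2, with signals of 86.7 and 21.0, and 1.57-fold lower under normexp correction. CGA was at least 2.12-fold higher on a dim spot (at least 1.11-fold under normexp).

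Of 6 amnion markers, 4 were measured on both arrays, with a summed level of 1.96 and 1.42. GABRP made up 67.0% and 32.2% of it, and was 2.89-fold lower in substate 2, with signals of 412 and 125. HEY1 was 2.06-fold higher (1.67-fold under normexp), VTCN1 had a log2 difference of -0.37 and IGFBP3 of 0.053, and ISL1 and TFAP2B were well above background on neither array. The mesoderm list had 0 of 6 markers measured on both arrays and a summed level of 0.245 and 0.314. MESP1 was well above background in substate 2 only and 2.21-fold higher there, a log2 difference of 1.14, which was 0.26 under normexp. TBX6 went the other way, well above background in substate 1 only, with signals of 23.3 and 15.1 and a log2 difference of -0.44. TBXT, MIXL1, EOMES and HAND2 were well above background on neither array. The endoderm list had 3 of 6, with a summed level of 1.45 and 1.71. The log2 differences were 0.77 for FOXA2, 0.46 for AFP and -0.15 for CXCR4. GATA4 was well above background in substate 1 only, and SOX17 and GATA6 were so on neither array. The fibroblast list had 3 of 7, with a summed level of 167 and 152. THY1, which pluripotent stem cells also express, made up 92.0% and 93.7% of that sum and had a difference of -0.11. The collagens COL1A1 and COL1A2 had -0.49 and -0.50, and DCN, LUM, COL3A1 and POSTN were well above background on neither array. The part of these markers in the member values was not tested.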

How the data were processed

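Total RNA of each substate was labelled with the dye Cy3 and hybridised to 1 array. The deposited scanner files give an intensity for each spot. Per the file headers, Agilent Feature Extraction 11.5.1.1 (protocol GE1_1105_Oct12, design annotated on hg19) subtracted background and removed spatial trends. The authors also deposited log2 values, which, per their methods, come from signals floored at 1 and shifted by the 75th percentile of each array. They differed from the values computed here by 1 constant per array within 0.01 for 100% of the probes.

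Here, processed signals were floored at 1 and log2 transformed, outlier spots were left out (0 among the member probes), repeated spots were averaged into 1 value per probe, and the 75th percentile over non-control probes was subtracted. A gene value is the mean over its probes that both arrays measured, that is well above background and below saturation. A probe well above background on one array only was given a bound against the lowest signal among probes well above background on the other array. Where its own signal there was higher, that signal was used. Probes were named by RefSeq accession without version in a GRCh38.p14 table, which matched 31104 of 58201 probes (53.4%). Positions were used for order only. LOR is listed as LORICRIN.

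Named from the gene lists were all members, every listed gene with a probe past 2-fold, the 3 genes of each list with the largest difference, CDH1, VIM and ZEB1, and genes near a member. The cell type markers to name were picked outside this rule, after their values were seen. The members and lists were chosen with earlier results of these data known. The number of arrays limits the precision. Alternatives were median centring, quantile normalisation, loess centring (span 0.3), normexp correction (offset 50), outlier spots kept, the deposited log2 values, other summaries over probes, other limits and, added after the data were seen, no scaling. The procedures were tested on simulated data. Python 3.11.15, pandas 2.3.3, statsmodels 0.14.6 and R 4.3.3 with limma 3.58.1 were used.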

Additional observations from a re-analysis of the deposited data

How the results depend on the processing

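No paired analysis was possible because the labels give 1 array to each substate. The median difference of the members was -0.09. It was 0.0076 under normexp correction and -0.28 with no scaling between the arrays, the latter by a constant shift that all genes share. It lay between -0.09 and -0.05 under the other settings. The number of member probes past the Z-score limits was 0, and 2 under normexp correction, namely PKP2 (Z-score of -2.99) and DSG2 (-2.09), as the SD over all probes was then 0.23 in place of 0.63. The members past 2-fold numbered 0 in each direction under each setting run. Normexp was run on median spot signals, a choice made after the data were seen. The naming of probes by a gene name column was not run, because the files used here hold no such column. DSC3, with signals from 24.1 to 34.1, is limited by its signal over background. At 1 spot per probe, differences under 1.96 SD cannot be told from spot noise. That limit was about 0.46 under 50 units, 0.23 from 50 to 500 units, 0.14 from 500 to 5000 units and 0.12 above that.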
